A study of Arabidopsis thaliana with 4 samples.

Results

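The YUCCA (*YUC*) genes of *Arabidopsis thaliana* encode the flavin monooxygenases of auxin synthesis, and the 10 members described here are *YUC1* to *YUC9* and *YUC11*. They were found by their locus identifiers among 28642 loci of a gene table for whole roots, and 7 of the 10 were among the 20714 genes with enough reads to be tested. Roots of *atx1setm* seedlings were set against those of the WT (Ws), with 2 biological replicates of each genotype and 4 libraries in all. The *atx1setm* line is in the Ws background, carries the *atx1-1* mutation, and expresses an *ATX1* transgene whose SET domain, the part that methylates H3K4, is catalytically inactive. Ws is the unmutated accession with its own *ATX1* gene. Which promoter drives the transgene is not given in the sources used here. The labels give an age of 10 days after germination. The study's methods give 8 to 10 days for RNA extraction and 8 days for sequencing, and its results give 8 to 10 days for sequencing. The medium is LS in the labels and MS in the methods. Beyond naming the replicates biological, the labels do not say whether they shared a culture or day, or how seedlings were pooled. The p-values therefore measure the spread between these libraries only. Whole roots were collected, and fewer cells of a type cannot be told apart from less RNA per cell.

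Indole-3-acetic acid, the main natural auxin, is made from tryptophan in consecutive steps. Aminotransferases of the TAA1/TAR family turn tryptophan into indole-3-pyruvic acid, and YUC enzymes turn that into indole-3-acetic acid. In Arabidopsis *YUC3*, *YUC5*, *YUC7*, *YUC8* and *YUC9* are known for auxin synthesis in roots, and plants that lack them together have short roots. *YUC1*, *YUC2*, *YUC4* and *YUC6* are known from flowers, leaves and veins, and *YUC11* is known from embryos.

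In these roots *YUC3* and *YUC5* were lower in both *atx1setm* libraries than in both Ws libraries, and *YUC2* was higher. Among all genes tested, 20.0% were likewise lower without overlap and 19.6% higher, after scaling of the libraries. *YUC3* was at 0.370 of its Ws level (95% interval 0.232 to 0.589), *YUC5* at 0.515 (95% interval 0.302 to 0.880), and the weakly read *YUC2* at 3.83 times its Ws level (95% interval 1.71 to 8.56). *YUC2* had enough reads to be tested only through its *atx1setm* libraries, so its value is a description. *YUC9* and *YUC6*, with the highest levels in *atx1setm*, overlapped between genotypes after scaling of the libraries. No member passed an adjusted p of 0.05 in the quasi-likelihood test of edgeR, and neither did any other gene.

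The members are alike in sequence. The stretches that code for the flavin-binding site are therefore shown for *YUC3*, *YUC5* and *YUC2*, each beside its closest relative over the whole coding sequence. *YUC3*, *YUC5* and *YUC2* are the tested members whose CPM did not overlap between genotypes. Each stretch is 60 bases of coding sequence from RefSeq (TAIR10.1), 5′ to 3′ on the coding strand. Capitals mark codons that match GGNNNNGGNNNNNNNGGN in frame, which spell glycine, any residue, glycine, any pair of residues and glycine.
YUC3 (chr1:1279632-1279691, plus strand): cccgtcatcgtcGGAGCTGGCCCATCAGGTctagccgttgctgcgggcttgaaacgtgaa
YUC7 (chr2:14081819-14081878, minus strand): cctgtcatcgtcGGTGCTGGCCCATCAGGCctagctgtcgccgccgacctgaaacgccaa
YUC5 (chr5:17650000-17650059, minus strand): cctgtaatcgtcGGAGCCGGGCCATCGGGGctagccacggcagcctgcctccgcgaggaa
YUC9 (chr1:1104695-1104754, plus strand): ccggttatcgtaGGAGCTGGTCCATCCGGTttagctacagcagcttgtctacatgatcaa
YUC2 (chr4:7723476-7723535, minus strand): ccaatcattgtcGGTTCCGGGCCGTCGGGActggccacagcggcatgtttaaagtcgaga
YUC6 (chr5:8938072-8938131, minus strand): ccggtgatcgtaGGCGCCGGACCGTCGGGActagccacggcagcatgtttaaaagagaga
The stretches of *YUC3* and *YUC7* differ at 11 of 60 bases, those of *YUC5* and *YUC9* at 17, and those of *YUC2* and *YUC6* at 14. Within this stretch *YUC5* was nearer to *YUC8* (14 bases) and *YUC6* (16 bases) than to *YUC9*.

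Over the whole coding sequence the 45 pairs of members were 57.7 to 81.0% identical. *YUC5* and *YUC9* were the closest pair (81.0%), followed by *YUC3* and *YUC7* (79.4%) and by *YUC8* and *YUC9* (72.7%). The closest relative of *YUC1* was *YUC4* (70.4%), and that of *YUC2* was *YUC6* (67.2%). The longest run of bases that any pair shared was 42, in *YUC5* and *YUC9*, which is shorter than the 50 cycles of a read. No window of 50 coding bases of any member occurred more than once in the nuclear genome. The sources used here do not give how many mismatches the mapping allowed, and some reads of the closest pairs may still have been placed on the other gene. In CPM, *YUC5* and *YUC3* were lower in both *atx1setm* libraries, and *YUC9* and *YUC7* overlapped between genotypes. A difference within a pair was not tested, and the 95% intervals of the paired genes' fold changes overlap.

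**Figure D1:**
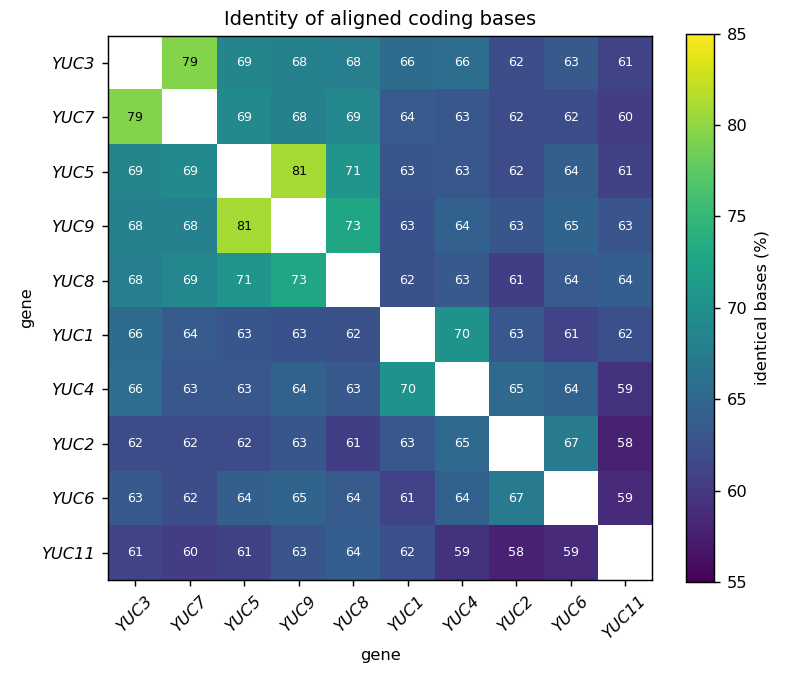
Identity of aligned coding bases (%) for each pair of the 10 YUCCA genes, with genes on both axes and the identity printed in each cell. The pairs *YUC5* with *YUC9* (81.0%) and *YUC3* with *YUC7* (79.4%) stand highest, and *YUC11* has the lowest values.

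The gene models bear on the read counts as well. In TAIR10 *YUC3* lies at chr1:1279388-1281618 with 3 exons, *YUC5* at chr5:17648857-17650131 with 1 exon, and *YUC2* at chr4:7721618-7723989 with 4 exons. *YUC6* lies at chr5:8935040-8938758 with 7 exons and *YUC9* at chr1:1104623-1105988 with 2 exons. The models of 4 members (*YUC5*, *YUC7*, *YUC9* and *YUC11*) hold the coding sequence without any UTR, so reads from their transcript ends were not counted. *YUC11* is the 1 member whose model overlaps another locus of the table, AT1G21440, by 28 bases.

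The 250 bases before the annotated start are shown for *YUC3* and *YUC2*, the members with the largest differences in each direction, on the coding strand and from RefSeq (TAIR10.1). Capitals mark the auxin response element TGTCTC, which auxin response factors bind, on either strand.
YUC3 (chr1:1279101-1279350, plus strand): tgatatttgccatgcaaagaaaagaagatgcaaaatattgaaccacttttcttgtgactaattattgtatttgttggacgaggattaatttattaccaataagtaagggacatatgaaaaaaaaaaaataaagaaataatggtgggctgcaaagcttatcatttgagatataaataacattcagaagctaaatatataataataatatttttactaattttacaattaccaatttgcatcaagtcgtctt
YUC2 (chr4:7724071-7724320, minus strand): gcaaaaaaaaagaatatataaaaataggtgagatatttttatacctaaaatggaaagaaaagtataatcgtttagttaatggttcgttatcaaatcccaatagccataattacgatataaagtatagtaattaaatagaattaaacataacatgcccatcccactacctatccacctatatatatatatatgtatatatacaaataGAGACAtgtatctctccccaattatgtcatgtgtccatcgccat
TGTCTC occurred once in the *YUC2* window, as its reverse complement, and in none of the other members, against 10.9% of 27443 genes with at least 1. The G-box CACGTG, a palindrome bound by bHLH and bZIP factors, was in 0 of the 10 windows and in 6.5% of the 27443. No match of one motif overlapped a match of the other, and a match is a description of letters only.

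Exon reads per library were between 38574293 and 46439122, with TMM scaling factors of 0.855 to 1.09. Exon reads of *ATX1* were 475 and 270 in *atx1setm* and 731 and 388 in Ws, and transcripts of the *atx1setm* transgene map to this locus as well. The log2 fold change, −0.53 with an SE of 0.34, did not pass (edgeR quasi-likelihood adjusted p = 0.701), so this level does not check the labels. Intron reads of *ATX1* were 44 and 43 in *atx1setm*, against 0 and 2 in Ws. Root markers were present in every library: *SHR*, *SCR*, *PIN2*, *WER* and *CASP1* summed to 204 to 331 CPM in *atx1setm* and to 320 to 355 CPM in Ws. CPM here are exon reads scaled to library size and TMM. The 5 green shoot markers summed to 77.9 and 252 CPM in *atx1setm* and to 128 and 200 CPM in Ws. The seed storage markers were at or near 0, with 0 of 2 tested.

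The first question was how much each member contributes in a root. Levels are compared between genes as the authors' RPKM, which divide by exon length and library reads. *YUC9* had 8.69 and 7.16 RPKM in *atx1setm* and 7.27 and 10.3 RPKM in Ws, the highest mean of the 10 in either genotype. *YUC6* had 6.16 and 7.18 RPKM in *atx1setm* and 2.90 and 6.05 RPKM in Ws. *YUC3* had 2.35 and 1.98 RPKM in *atx1setm* and 6.25 and 6.31 RPKM in Ws. *YUC3* was thus next to *YUC9* in Ws and below both *YUC9* and *YUC6* in *atx1setm*.

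These RPKM carry no TMM scaling. Without it *YUC6* was higher and *YUC8* lower in both *atx1setm* libraries, whereas with it both overlapped, as given with each gene.

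A middle tier followed. *YUC8* had 1.43 and 2.04 RPKM in *atx1setm* and 2.19 RPKM in both Ws libraries, and *YUC5* had 1.57 and 1.36 RPKM in *atx1setm* and 3.16 and 2.96 RPKM in Ws. The other members were low. *YUC7* had 0.392 and 0.593 RPKM in *atx1setm* and 0.427 and 0.455 RPKM in Ws, and *YUC2* had 0.451 and 0.321 RPKM in *atx1setm* and 0.127 and 0.0835 RPKM in Ws. *YUC4*, *YUC11* and *YUC1* were at or below 0.148 RPKM in every library.

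In *atx1setm* the order of mean RPKM was *YUC9*, *YUC6*, *YUC3*, *YUC8*, *YUC5*, *YUC7*, *YUC2*, *YUC4*, *YUC11* and *YUC1*. Neighbours whose libraries overlapped there were *YUC9* with *YUC6*, *YUC3* with *YUC8*, *YUC8* with *YUC5*, and *YUC7* with *YUC2*. In Ws the order was *YUC9*, *YUC3*, *YUC6*, *YUC5*, *YUC8*, *YUC7*, *YUC2*, *YUC4*, *YUC11* and *YUC1*. The overlapping neighbours were *YUC6* with *YUC5*, *YUC4* with *YUC11*, and *YUC11* with *YUC1*. With only 2 libraries in a genotype, a gap between neighbours is a description. Against the tested genes by RPKM in the same library, *YUC9* stood at the 45.5th and 49.4th percentile in *atx1setm* and at the 41.0th and 53.2th in Ws. Even the highest member was therefore near the middle of the expressed genes.

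**Figure D2:**
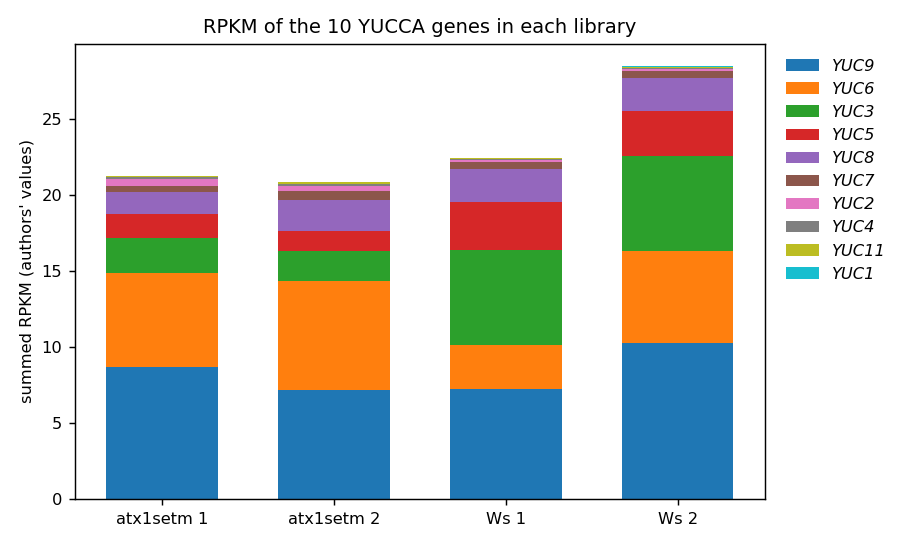
Stacked RPKM (authors' values, y axis) of the 10 YUCCA genes in each of the 4 libraries (x axis), 1 colour per gene. The stacks reach 21.3 and 20.9 RPKM in *atx1setm* and 22.5 and 28.5 RPKM in Ws, and the *YUC3* segment is thinner in both *atx1setm* libraries.

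The members' RPKM summed to 21.3 and 20.9 in *atx1setm* and to 22.5 and 28.5 in Ws (21.1 ± 0.315 against 25.5 ± 4.30, SD, n = 2 each). Both *atx1setm* sums were lower than both Ws sums, by less than the gap between the Ws libraries. After TMM scaling the sums overlapped, at 19.6 and 24.4 in *atx1setm* and 21.1 and 28.2 in Ws. Without *YUC3* the unscaled sums overlapped too, at 19.0 and 18.9 RPKM in *atx1setm* and 16.2 and 22.2 RPKM in Ws.

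The make-up of the sum differed more than its size. *YUC3* made up 11.0 and 9.51% of it in *atx1setm*, against 27.8 and 22.1% in Ws. *YUC5* made up 7.39 and 6.52% in *atx1setm*, against 14.1 and 10.4% in Ws. *YUC6* made up 28.9 and 34.4% in *atx1setm*, against 12.9 and 21.2% in Ws. These 3 shares did not overlap between genotypes, and neither did those of the weakly read *YUC2*, *YUC4* and *YUC11*. *YUC2* made up 2.12 and 1.54% in *atx1setm*, against 0.566 and 0.293% in Ws. The shares of *YUC1*, *YUC7*, *YUC8* and *YUC9* overlapped, that of *YUC9* at 40.8 and 34.3% in *atx1setm* and 32.4 and 35.9% in Ws. Over all genes tested, the CPM of 19.6% were higher without overlap and of 20.0% lower. Shares within a library do not depend on its scaling, but a lower share of one member raises those of the others.

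Grouped by the organs they are known for, a grouping made after the values were seen, the 5 root members summed to 14.4 and 13.1 RPKM in *atx1setm* and to 19.3 and 22.2 RPKM in Ws. Without *YUC3* the root members summed to 12.1 and 11.2 RPKM in *atx1setm* and to 13.0 and 15.9 RPKM in Ws. After TMM scaling the sum of the 5 still did not overlap, at 13.3 and 15.4 in *atx1setm* and 18.2 and 21.9 in Ws, but without *YUC3* it did, at 11.1 and 13.0 in *atx1setm* and 12.3 and 15.7 in Ws. Whether the root sums overlapped without *YUC3* thus depended on the scaling. *YUC1*, *YUC2*, *YUC4* and *YUC6* summed to 6.76 and 7.64 RPKM in *atx1setm* and to 3.10 and 6.31 RPKM in Ws, which overlapped after TMM scaling. Nearly all of that sum was *YUC6*: without it, the members known from shoots and flowers summed to 0.598 and 0.462 RPKM in *atx1setm* and to 0.195 and 0.262 RPKM in Ws. These sums carry no test, since the grouping was chosen with the values known.

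The second question was which members differ between the genotypes, and each was read from a fit over all 20714 genes tested. In edgeR's quasi-likelihood test 0 genes (0.0%) were higher and 0 (0.0%) lower at an adjusted p under 0.05, and the smallest adjusted p was 0.0837. At an unadjusted p under 0.05, 1 member was higher (*YUC2*) and 2 were lower (*YUC3* and *YUC5*), beside 1022 (4.93%) of all genes higher and 990 (4.78%) lower. The exact test of edgeR called *YUC2* higher, beside 1.69% of all genes, and *YUC3* lower, beside 2.23%. DESeq2 called 0 members higher, beside 1.46% of all genes, and *YUC3* lower, beside 1.75%. The CPM of the genotypes did not overlap in 1 tested member that was higher and in 2 that were lower, beside 19.6% of all genes higher and 20.0% lower. *YUC2* would have missed the filter on its Ws libraries alone, so the count of higher members among those tested is no measure of the family. The median log2 fold change of the 7 tested members was −0.05 and that of all genes tested −0.01.

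**Figure D3:**
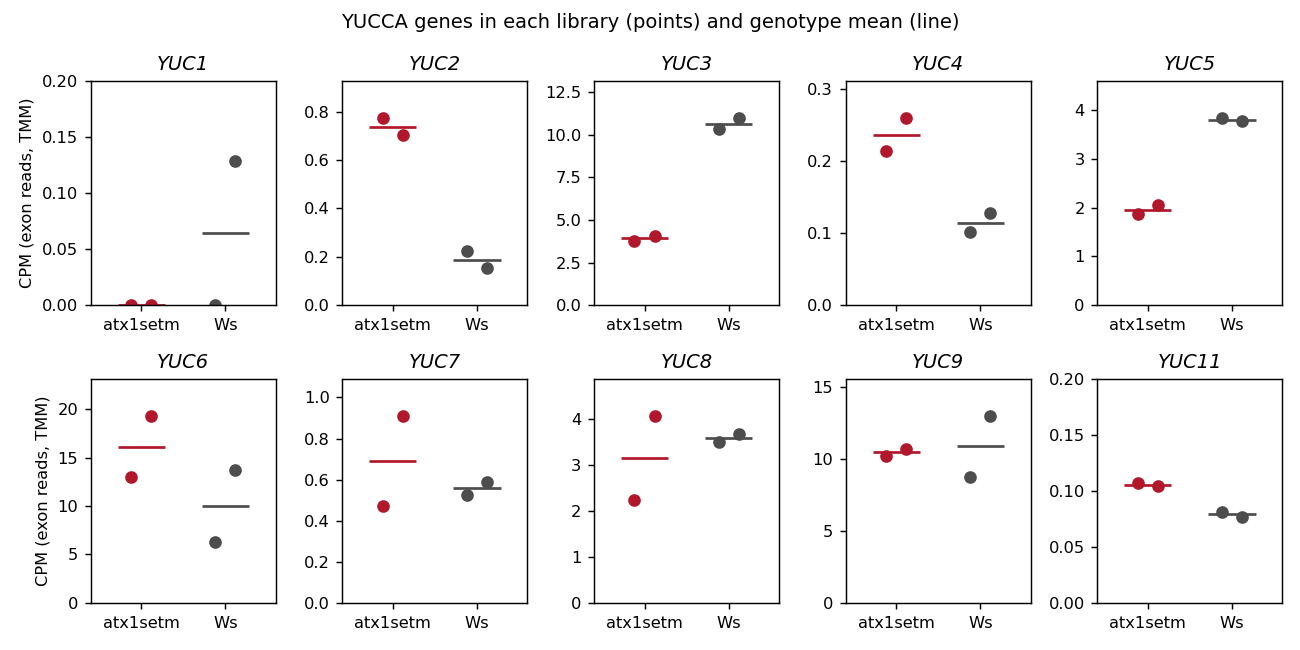
CPM (exon reads scaled to library size and TMM, y axes that start at 0 and differ between panels) of each of the 10 YUCCA genes in *atx1setm* (left in each panel) and Ws, with points for libraries and a line for the mean. *YUC3* and *YUC5* lie lower in both *atx1setm* libraries, *YUC2* lies higher in both, and *YUC6*, *YUC7*, *YUC8* and *YUC9* overlap. *YUC4* and *YUC11*, too weakly read to be tested, also lie higher in both.

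*YUC3* (AT1G04610), one of the root members, had 177 and 157 exon reads in *atx1setm* and 510 and 427 in Ws. Its CPM were 3.79 and 4.08 in *atx1setm*, against 10.3 and 11.0 in Ws. Both *atx1setm* libraries were low, and the gap between genotypes was many times the spread within them (3.94 ± 0.201 against 10.6 ± 0.433 CPM, SD, n = 2 each). The log2 fold change was −1.44 (SE 0.26, 95% interval −2.11 to −0.76). Unadjusted p was 0.00267 in edgeR's quasi-likelihood test, the smallest of the members and rank 328 of all genes, with an adjusted p of 0.168. Adjusted p was 0.00521 in edgeR's exact test and 0.0167 in DESeq2. The side of the threshold depended on which libraries entered the edgeR quasi-likelihood fit, where adjusted p was 0.0117 without *atx1setm* replicate 1 and 0.0108 without *atx1setm* replicate 2, but 0.838 without Ws replicate 1 and 0.635 without Ws replicate 2. The log2 fold change stayed between −1.53 and −1.35 over all 16 alternatives. Intron reads of *YUC3* were 8 and 2 in *atx1setm* and 12 and 2 in Ws, and reads across its exon junctions were 1 and 5 in *atx1setm* and 9 and 7 in Ws.

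*YUC5* (AT5G43890), another root member and the closest relative of *YUC9*, had 87 and 79 exon reads in *atx1setm* and 189 and 147 in Ws. Its CPM were 1.86 and 2.05 in *atx1setm*, against 3.83 and 3.77 in Ws. The libraries of each genotype lay close together, at 1.96 ± 0.133 CPM in *atx1setm* and 3.80 ± 0.0436 CPM in Ws (SD, n = 2 each). The log2 fold change was −0.96 (SE 0.30, 95% interval −1.73 to −0.18), with an unadjusted p of 0.0243 and an adjusted p of 0.397 in edgeR's quasi-likelihood test. Adjusted p was 0.252 in edgeR's exact test and 0.458 in DESeq2. The difference of *YUC5* thus did not pass in any of these tests.

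*YUC9*, *YUC8* and *YUC7* are the remaining root members. *YUC9* had 477 and 413 exon reads in *atx1setm* and 432 and 506 in Ws, or 10.2 and 10.7 CPM in *atx1setm* and 8.76 and 13.0 CPM in Ws. *YUC8*, known as a target of PIF4 in warmth, had 2.23 and 4.05 CPM in *atx1setm* and 3.49 and 3.67 CPM in Ws. *YUC7* had 0.472 and 0.909 CPM in *atx1setm* and 0.527 and 0.590 CPM in Ws. The Ws libraries of *YUC9* enclosed both *atx1setm* values, and the reverse held for *YUC8* and *YUC7*. Log2 fold changes were −0.05 for *YUC9* (95% interval −0.81 to 0.70), −0.19 for *YUC8* (95% interval −1.20 to 0.82) and 0.30 for *YUC7* (95% interval −0.95 to 1.54). Both directions lie within each of these intervals, so equal levels are not shown. The sign turned when 1 library was left out: *YUC9* was at 0.27 without Ws replicate 2, *YUC8* at 0.18 without *atx1setm* replicate 1, and *YUC7* at −0.22 without *atx1setm* replicate 2.

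*YUC2* (AT4G13260), of the members known from shoots and flowers, had 36 and 27 exon reads in *atx1setm* and 11 and 6 in Ws. Its CPM were 0.772 and 0.701 in *atx1setm*, against 0.223 and 0.154 in Ws. The genotypes did not overlap, but the reads behind the difference are few (0.736 ± 0.0497 against 0.188 ± 0.0489 CPM, SD, n = 2 each). *YUC2* passed the filter only through its *atx1setm* libraries, where it is high, so its interval and p-values are no independent support. The log2 fold change was 1.94 (SE 0.45, 95% interval 0.78 to 3.10), with an unadjusted p of 0.00771 and an adjusted p of 0.258 in edgeR's quasi-likelihood test. Adjusted p was 0.0277 in edgeR's exact test and 0.346 in DESeq2. On log2(RPKM + 0.5), which understates the change of low genes, the value was 0.55.

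*YUC6* (AT5G25620), also known from shoots and flowers and the closest relative of *YUC2*, had 606 and 742 exon reads in *atx1setm* and 309 and 535 in Ws. Its CPM were 13.0 and 19.3 in *atx1setm* and 6.27 and 13.7 in Ws. Replicate 1 of *atx1setm* was lower than replicate 2 of Ws, so the genotypes overlapped. At the same replicate number *atx1setm* was higher in each case, but the labels do not say that a number marks a shared culture or day. The log2 fold change was 0.69 (SE 0.46, 95% interval −0.48 to 1.86, adjusted p = 0.707 in edgeR's quasi-likelihood test). The value was 0.23 without Ws replicate 1 and 1.37 without Ws replicate 2. With the replicate number as a block in the fit it was 0.77 (adjusted p = 0.0139 in edgeR's quasi-likelihood test). The gap of *YUC6* between the Ws libraries exceeded that between the genotype means (16.1 ± 4.44 CPM in *atx1setm* against 10.0 ± 5.27 CPM in Ws, SD, n = 2 each).

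*YUC4*, *YUC11* and *YUC1* had too few reads to be tested. *YUC4* had 10 and 10 exon reads in *atx1setm* and 5 and 5 in Ws. Over both libraries this gave a ratio of 2.07 (exact 95% interval 0.926 to 4.96, counting error only). *YUC11* had 5 and 4 reads in *atx1setm* and 4 and 3 in Ws, a ratio of 1.33 (exact 95% interval 0.442 to 4.21). In CPM *YUC4* and *YUC11* were higher in both *atx1setm* libraries, on at most 10 reads in any library. Neither interval excludes equal levels. *YUC1* had 0 reads in both *atx1setm* libraries and in Ws replicate 1, and 5 in Ws replicate 2. A count of 0 allows 3 reads, or 0.0643 and 0.0779 CPM in the *atx1setm* libraries and 0.0608 CPM in Ws replicate 1, so a difference of *YUC1* was not detectable at this depth.

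**Figure D4:**
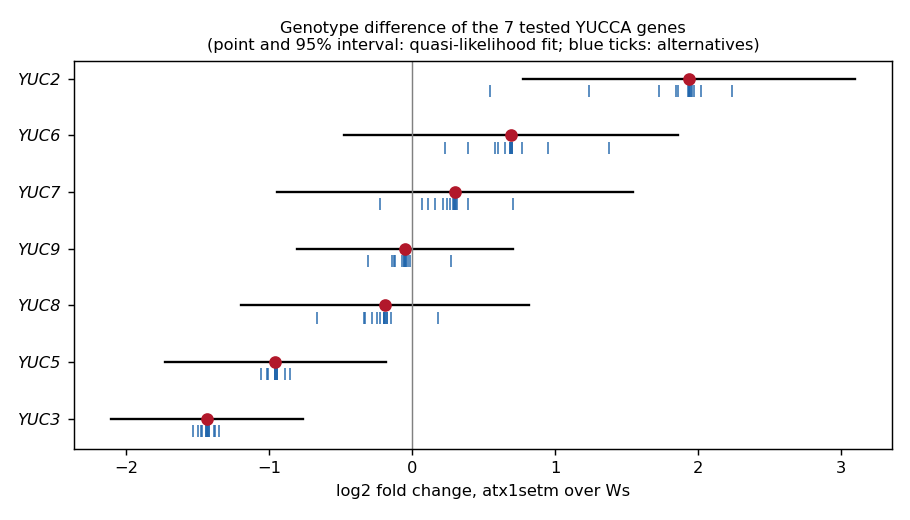
Log2 fold change of *atx1setm* over Ws (x axis) for the 7 tested YUCCA genes (rows), with red points and black 95% intervals from the quasi-likelihood fit of edgeR and blue ticks for the alternatives. The intervals of *YUC2*, *YUC5* and *YUC3* do not reach 0, and ticks on both sides of 0 appear for *YUC7*, *YUC8* and *YUC9*.

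The third question was how genes around the YUC step differ. Their lists were chosen by role, and 0 members of any list passed an adjusted p of 0.05 in edgeR's quasi-likelihood test. Of the 6 genes listed as tryptophan aminotransferases, 5 were tested, among them *VAS1*, which uses up the substrate of YUC enzymes. The 5 had a median log2 fold change of 0.00. At an unadjusted p under 0.05, 0 of them were higher and 1 was lower, beside 4.93% of all genes higher and 4.78% lower. That gene was *TAA1*, the main aminotransferase of the pathway, at 6.81 ± 1.14 CPM in *atx1setm* and 11.2 ± 0.131 CPM in Ws (SD, n = 2 each). Its log2 fold change was −0.72 (SE 0.27, unadjusted p = 0.0413 and adjusted p = 0.482 in edgeR's quasi-likelihood test), and neither the exact test nor DESeq2 called it. For *VAS1*, which returns indole-3-pyruvic acid to tryptophan, the log2 fold change was 0.43 ± 0.32 (SE).

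Upstream of these, 11 of 12 genes of tryptophan synthesis were tested, with a median log2 fold change of 0.17. At an unadjusted p under 0.05 in edgeR's quasi-likelihood test, 0 were called, beside 4.93% of all genes higher and 4.78% lower. At an adjusted p under 0.05, the exact test (1.69% and 2.23% of all genes) and DESeq2 (1.46% and 1.75%) called 0. In CPM 5 were higher without overlap and 0 lower, beside 19.6% and 20.0% of all genes. *TSA1*, a subunit of tryptophan synthase, had 228 ± 28.6 CPM in *atx1setm* and 162 ± 20.0 CPM in Ws (SD, n = 2 each), and AT2G04400 of the same list had 58.5 ± 8.39 CPM in *atx1setm* and 47.9 ± 6.39 CPM in Ws (SD, n = 2 each). Of 9 genes of other indole routes, 1 was higher and 0 lower at unadjusted p under 0.05, beside 4.93% and 4.78% of all genes. It was *NIT2*, a nitrilase, with 9793 and 14693 exon reads in *atx1setm* and 3088 and 4879 in Ws. Both *atx1setm* libraries were high, and the log2 fold change of *NIT2*, 1.66 ± 0.48 (SE), passed in edgeR's exact test (adjusted p = 0.0422) and in DESeq2 (adjusted p = 0.0147). For *NIT4*, which acts on cyanoalanine, the log2 fold change was −1.48 ± 0.74 (SE, edgeR quasi-likelihood adjusted p = 0.633).

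Transcription factors linked to *YUC* genes in Arabidopsis formed a list of 15, of which 14 were tested. At an unadjusted p under 0.05, 4 were higher and 1 lower, beside 4.93% of all genes higher and 4.78% lower, with a median log2 fold change of 0.26. The exact test (1.69% of all genes higher and 2.23% lower) and DESeq2 (1.46% and 1.75%) called none. *SHI*, of the SHI/STY family that activates *YUC4*, had 4.83 ± 0.853 CPM in *atx1setm* and 2.07 ± 0.230 CPM in Ws (SD, n = 2 each). *PLT1*, a factor of the root stem cell niche, had 9.19 ± 1.10 CPM in *atx1setm* and 16.0 ± 1.26 CPM in Ws (SD, n = 2 each). Log2 fold changes were 1.22 for *SHI* (SE 0.32, adjusted p = 0.306 in edgeR's quasi-likelihood test) and −0.80 for *PLT1* (SE 0.25, adjusted p = 0.392 in the same edgeR test).

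Among genes that inactivate auxin, 12 of 13 were tested, with a median log2 fold change of 0.51. At an unadjusted p under 0.05, 4 were higher and 1 lower, again beside 4.93% and 4.78% of all genes. *GH3.3*, an enzyme that joins auxin to amino acids, had 1057 and 1730 exon reads in *atx1setm* and 399 and 478 in Ws. Both *atx1setm* libraries were high, and its log2 fold change of 1.73 (SE 0.44) passed in edgeR's exact test (adjusted p = 0.0187) and in DESeq2 (adjusted p = 0.00683). *UGT74D1*, an auxin glucosyltransferase, had 32.6 ± 3.24 CPM in *atx1setm* and 61.5 ± 6.84 CPM in Ws (SD, n = 2 each). On the log2 scale *UGT74D1* was at −0.92 ± 0.24 (SE) and passed in none of the 3 tests.

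The *Aux/IAA* genes encode repressors of the auxin response, and many are themselves induced by auxin. Of 29 members 25 were tested, 5 were higher and 1 was lower at unadjusted p values under 0.05, beside 4.93% of all genes higher and 4.78% lower, and the median log2 fold change was −0.03. *IAA5* had 66 and 69 exon reads in *atx1setm* and 23 and 20 in Ws, and its log2 fold change of 1.71 (SE 0.38) passed in edgeR's exact test (adjusted p = 0.0183) but not in DESeq2 (adjusted p = 0.156). *IAA1* had 269 and 168 exon reads in *atx1setm* and 508 and 440 in Ws, which is −1.09 ± 0.28 (SE) on the log2 scale (edgeR quasi-likelihood adjusted p = 0.302). These *Aux/IAA* genes thus stood apart between the genotypes in opposite directions.

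**Figure D5:**
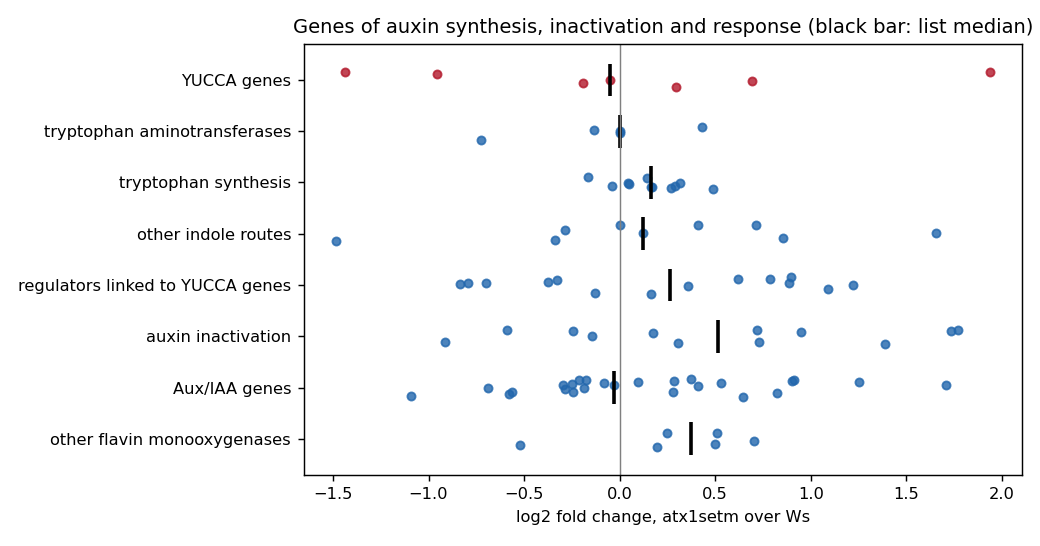
Log2 fold change of *atx1setm* over Ws (x axis) of each tested gene (points) in the lists of auxin synthesis, inactivation and response (rows), with black bars for list medians. The YUCCA genes (red) range from −1.44 to 1.94 around a median of −0.05, and auxin inactivation has the highest median at 0.51.

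The genes whose values across the 4 libraries were most like those of *YUC3*, by the root mean square difference of log2 CPM centred on each gene's mean, were *RGF2*, AT4G01760 and *BGAL4*. The difference was 0.0174 for *RGF2*, which encodes a root growth factor peptide, 0.0398 for AT4G01760 and 0.0403 for *BGAL4*, a beta-galactosidase. Their log2 fold changes were −1.45, −1.40 and −1.45 beside −1.44 for *YUC3*. *RGF2* had 71 and 61 exon reads in *atx1setm* and 202 and 171 in Ws. With 4 libraries, such likeness is mostly the genotype difference itself.

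Markers of root tissues were given beside these values because *YUC* levels are read from whole organs. The 5 root tissue markers had a median log2 fold change of −0.36. At an unadjusted p under 0.05, 0 were higher and 1 was lower, beside 4.93% of all genes higher and 4.78% lower. *WER*, a regulator of epidermal cell fate, had 8.35 ± 1.08 CPM in *atx1setm* and 15.9 ± 1.38 CPM in Ws (SD, n = 2 each), which is −0.93 ± 0.25 (SE) on the log2 scale (edgeR quasi-likelihood adjusted p = 0.319). For *PIN2*, an auxin carrier of the root tip, it was −0.66 ± 0.27 (SE, edgeR quasi-likelihood adjusted p = 0.544). *CASP1* was at −0.36 and *SCR* at −0.25, whereas *SHR* went the other way, at 0.34. The 3 root cap markers summed to 26.1 and 34.7 CPM in *atx1setm* and to 25.6 and 23.2 CPM in Ws. The part of these markers in the values of *YUC3*, *YUC5* and *TAA1* was not tested.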

How the data were processed

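Polyadenylated RNA of whole roots was sequenced in 50 single-end cycles on an Illumina HiSeq. The submitters' processing notes name FastQC and TAIR10, and the authors' mapping and counting were done with CLC Genomics Workbench. The sources used here do not give its settings or whether strand was used. The deposited exon, intron and junction read counts are raw, and the authors' deposited RPKM divide by exon length and mapped reads. Columns of the authors' own comparison of the genotypes (p-values and fold changes) were not used, nor were 52 other columns of per-sample values. Of the 28642 loci, 28009 had a name in the reference table and the rest are given by locus.

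Exon reads per library were 42842799 and 45025842 in *atx1setm* and 46439122 and 38574293 in Ws. Genes were kept by filterByExpr (20714) and scaled by TMM, and genotypes were set against each other in edgeR 4.0.16 (quasi-likelihood test, legacy fit, R 4.3.3) with Benjamini-Hochberg adjustment over all genes tested and a threshold of 0.05. The common dispersion was 0.0920. Log2 fold changes are *atx1setm* over Ws, with the SE and 95% interval from the fit. Intervals from reads alone cover counting error only. Alternatives were a replicate block, DESeq2 1.42.0, the exact test of edgeR, a robust or a non-legacy quasi-likelihood fit, RLE scaling, library totals, no filter, at least 10 reads in every library, gene reads, limma-trend (limma 3.58.1) on log2(RPKM + 0.5) or log2(RPKM + 0.1), and each library left out, 16 in all. The fits were run on simulated counts with known changes. Recovery was held to a cut-off only at a dispersion lower than that of these data, so no power is claimed here. The members and gene lists were chosen with earlier results of these data known. The genes named were all members, the 2 of each list with the smallest unadjusted p, *ATX1* and the 3 genes nearest to *YUC3*. *SHR*, *SCR* and *CASP1*, outside this rule, are named only as members of the root marker list.

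Sequences came from RefSeq (TAIR10.1). The files' gene models are on TAIR10, and all 28496 nuclear loci lie within the chromosome lengths of TAIR10.1. Of 3557 models with 1 exon of whole codons, 2484 (69.8%) began there with ATG and ended with a stop codon, on either strand. Stop codons between these ends were not looked for.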

Additional observations from a re-analysis of the deposited data

How the results depend on the processing

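Of 111 comparisons of a tested *YUC* gene with an alternative, 99 kept the sign and the side of the threshold, 9 passed it newly and 3 had the other sign. The signs that turned were those of *YUC7* (−0.22 without *atx1setm* replicate 2, range −0.22 to 0.70 with a library left out), *YUC8* (0.18 without *atx1setm* replicate 1, range −0.66 to 0.18) and *YUC9* (0.27 without Ws replicate 2, range −0.31 to 0.27). Members called higher numbered 0 in the quasi-likelihood test, 1 in edgeR's exact test and 2 with the replicate block, and 0 with a library left out. Members called lower numbered 0, against 1 in the exact test, 1 in DESeq2, 2 with the replicate block, and 0 to 1 with a library left out. Over all genes, 0 were higher and 0 lower, against 1838 and 2050 with the block, 303 and 363 in DESeq2, 351 and 461 in the exact test, and 26 and 55 without a filter. With a library left out, 56 to 2153 were higher and 90 to 2413 lower, and the lone library of a genotype is then assumed to vary like the other genotype. The cause of these differences was not tested. The replicate block called *YUC2* and *YUC6* higher (adjusted p = 0.00108 and 0.0139 in edgeR) and *YUC3* and *YUC5* lower (adjusted p = 3.99e-06 and 0.0164 in edgeR). Beside them it called 1838 of the 20714 genes tested higher and 2050 lower. Libraries of the same number deviated together (correlation 0.71 over 20714 genes), but the labels do not say that a number marks a shared culture or day, and with 2 pairs this is a hint from the data. *YUC2* could not be fitted under at least 10 reads in every library. Depth limits *YUC1*, *YUC4* and *YUC11*, which had at most 10 exon reads in any library, and 4 libraries limit all tests.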

Other observations

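Other flavin monooxygenases of the same enzyme class were measured beside the *YUC* genes. All 6 were tested, with a median log2 fold change of 0.37. In edgeR's quasi-likelihood test 0 passed an unadjusted p of 0.05, beside 4.93% of all genes higher and 4.78% lower. *FMO GS-OX1*, which oxidises glucosinolate side chains, had 12.3 ± 2.32 CPM in *atx1setm* and 7.55 ± 0.720 CPM in Ws (SD, n = 2 each). *FMO GS-OX4*, of the same subfamily, had 146 ± 9.62 CPM in *atx1setm* and 209 ± 6.19 CPM in Ws (SD, n = 2 each). Neither passed an adjusted p of 0.05 in any of the 3 count tests.

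Markers of vascular tissue and the root cap were also measured. *XCP2*, a xylem protease, had 77.0 ± 12.8 CPM in *atx1setm* and 76.3 ± 6.48 CPM in Ws (SD, n = 2 each), and *SUC2*, the sucrose carrier of phloem companion cells, had 26.4 ± 3.06 CPM in *atx1setm* and 32.8 ± 3.03 CPM in Ws (SD, n = 2 each). The xylem markers *XCP1* and *XCP2*, the phloem markers *SUC2* and *APL*, and the 3 root cap markers had 0 members past an unadjusted p of 0.05 in edgeR's quasi-likelihood test. Of all genes, 4.93% were higher and 4.78% lower at that threshold. Log2 fold changes were 0.35 for *XCP1*, 0.32 for *APL*, 0.85 for *BRN1* and −0.27 for *SMB*. Of the green shoot markers, *RBCS1B* had 5 and 89 exon reads in *atx1setm* and 14 and 24 in Ws, and *LHCA1* had 391 and 766 in *atx1setm* and 715 and 1010 in Ws. In both genes the *atx1setm* libraries lay further apart than the genotype means, in CPM.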
